A study of Mus musculus with 4 samples.

Results

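The AP-1 transcription factors Fos, Fosb, Fosl1, Fosl2, Jun, Junb, Jund and Atf3 were followed in single-cell RNA of mouse pancreas during repeated caerulein injury. They are 8 named members of the family, and all 8 are among the 32288 features of the deposited count table. Cells came from 4 mice of genotype Ptf1aCre-ERTM;ROSAYFP/+, backcrossed into CD-1 and 10 weeks old when injury began, of which 2 had been given caerulein for 2 weeks and 2 for 4 weeks. Caerulein is a cholecystokinin analogue whose repeated injection causes pancreatitis. Tamoxifen, given to every mouse before injury, activates a Cre expressed from Ptf1a, which in the adult pancreas marks acinar cells, the enzyme-secreting cells, and their descendants with EYFP. In every mouse the pancreas was minced, digested with warm collagenase and hyaluronidase, stained with DAPI to leave out dead cells, and sorted for EYFP before 10x Genomics 3' libraries were made. No mouse without injury is among the samples, and the labels name a pair of cell sorters without saying which mouse went through which.

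AP-1 is a family of dimers. Fos-family proteins pair with Jun-family proteins, Jun-family proteins also pair with each other, and Atf3, a stress-induced member of the related ATF group, can pair with Jun proteins or act alone as a repressor. Fos, Fosb, Jun, Junb and Atf3 are immediate early genes, transcribed within minutes of a growth factor, cytokine or stress signal through MAP kinases, the factors SRF and CREB, and AP-1 itself. In the pancreas they are known as early responders of acinar cells to caerulein, and the same genes are also known to respond to enzymatic digestion of tissue at body temperature.

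The bases just before the transcription start of Fos, Jun and Atf3 are shown because these 3 genes carry the results: Fos and Jun had the same highest mouse in all 7 types compared over time, while Atf3, summed over each type and scaled by TMM, had another in the 3 acinar ones. The sequences are from RefSeq on GRCm38.p6, the 120 bases upstream of the listed start, 5′ to 3′ on the strand of the gene, with matches to the motifs named below in capitals.
Fos, chr12:85473770-85473889, strand plus: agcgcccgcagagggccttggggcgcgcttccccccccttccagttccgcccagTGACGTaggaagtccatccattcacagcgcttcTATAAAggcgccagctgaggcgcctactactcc
Jun, chr4:95052223-95052342, strand minus: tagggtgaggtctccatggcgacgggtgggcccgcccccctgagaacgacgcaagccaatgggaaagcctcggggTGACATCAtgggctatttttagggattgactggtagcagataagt
Atf3, chr1:191183334-191183453, strand minus: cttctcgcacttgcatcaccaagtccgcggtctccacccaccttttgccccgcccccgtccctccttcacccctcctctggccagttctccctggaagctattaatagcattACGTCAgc

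The following motifs were searched on both strands in windows of 300 bases, from 250 before to 50 after the start: the AP-1 site TGANTCA, TGACNTCA, which includes the full cAMP response element, its shorter core TGACGT, the SRF-binding CArG box, and TATAAA. A full element counts under both TGACNTCA and TGACGT. In Fos, TGACGT lay at -66 to -61 and TATAAA at -33 to -28 from the start. In Jun, TGACATCA lay at -45 to -38, and in Atf3, TGACGT lay on the opposite strand at -8 to -3, where it reads ACGTCA. The RefSeq and GENCODE starts are the same for Fos and Jun. In RefSeq, Atf3, Fosl2 and Fosb start inside the span that GENCODE gives the gene, and Jund and Junb start upstream of it, so that these windows do not sit at the gene starts given below. In Junb, TATAAA lay at +1 to +6, and none of these motifs was found in the windows of Fosb, Fosl2 and Jund. TGANTCA and the CArG box were found in none of the 7 windows. Bases more than 250 before the start were not searched, so sites further upstream would not be seen. Of 32851 mouse promoters of the same length, 7.81% held TGANTCA, 8.83% TGACNTCA, 7.51% TGACGT, 1.63% a CArG box and 13.6% TATAAA.

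On mm10 with GENCODE M21, Fos spans chr12:85473890-85477273 on the plus strand, Fosb chr7:19302696-19310051 on the minus strand, Fosl1 chr19:5447547-5455946 on the plus strand and Fosl2 chr5:32135801-32157842 on the plus strand. Jun spans chr4:95049034-95052222 on the minus strand, Junb chr8:84974484-84978718 on the minus strand, Jund chr8:70698949-70700616 on the plus strand and Atf3 chr1:191170296-191218039 on the minus strand. All 8 are annotated as protein-coding genes.

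The deposited table holds raw UMI counts, each UMI marking 1 captured RNA molecule, for 21140 cells, between 4715 and 6255 per mouse, with 72459531 to 103610807 UMIs per mouse and a median of 8338 to 15897.5 UMIs per cell. The authors gave 13362 cells 1 of 8 type names, and 7778 cells have none; although the labels call all cells sorted EYFP+, these include cells with markers of macrophages, lymphocytes and endothelium. Levels are CPM, the UMIs of a gene scaled by the total UMIs of the summed cells of a mouse and a type, and are compared only within a gene. At each time point the value of mouse 1 is given before that of mouse 2. Libraries shared 67 of 21068 distinct barcodes, carried by 139 cells. Marker genes were in keeping with most type names: summed acinar markers took 293450 to 358680 CPM of Acinar cells, proliferation markers 1072 to 1344 CPM of Acinar.Prolif, tuft markers 7491 to 8384 CPM of Tuft and endocrine markers 53470 to 180850 CPM of EEC, the enteroendocrine cells. Acinar/MucinDuctal cells held acinar markers at 131320 to 164540 CPM, and their median depth was 19556 UMIs in 2-week mouse 2 against 2659 to 3555 in the other 3 mice. Ductal-like cells held the 8 ductal markers at 21135 and 17034 CPM at 2 weeks and 24522 and 23048 CPM at 4 weeks, but these did not lead in every mouse. Their mucin or pit markers were at 22202 and 20438 CPM in the 2-week mice, above the ductal ones, and their acinar markers at 71814 CPM in 4-week mouse 1.

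Fos, the best known immediate early gene of the family, was lowest in Acinar and Acinar.Prolif cells and highest in EEC and Ductal-like cells in each mouse. In Acinar cells Fos was at 41.1 and 240.0 CPM at 2 weeks and 27.0 and 28.6 CPM at 4 weeks. In EEC cells it was at 747 and 1331 CPM at 2 weeks and 1019 and 1006 CPM at 4 weeks, and in Ductal-like cells at 544 and 1229 CPM at 2 weeks and 956 and 713 CPM at 4 weeks. Each mouse was thus higher in both of these types than in its own Acinar cells, and the single high Acinar value, that of 2-week mouse 2, was below the lowest EEC value. MucinDuctal cells, the mucin-producing cells formed after injury, held 211 and 595 CPM at 2 weeks and 231 and 295 CPM at 4 weeks, and Tuft cells, a chemosensory type, 312 and 438 CPM at 2 weeks and 273 and 267 CPM at 4 weeks. Taken against the Acinar cells of its own mouse, the mean log2 ratio was 4.22 ± 1.26 (SD, n = 4) in EEC, 3.93 ± 1.20 in Ductal-like and 2.50 ± 0.90 in MucinDuctal cells. Secretory enzymes made up 49.0% to 58.0% of the UMIs of Acinar cells, and with these left out of all totals the ratios were 3.15 ± 1.14, 2.90 ± 1.12 and 1.44 ± 0.79. No test was made between types, since how the types were assigned is not given in the sources used here and these genes may have been used.

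Fosb, which also encodes a truncated splice form that the counts do not tell apart, followed a like order. It stood at 20.9 and 99.2 CPM at 2 weeks and 14.3 and 12.5 CPM at 4 weeks in Acinar cells and at 193 and 166 CPM at 2 weeks and 175 and 127 CPM at 4 weeks in EEC cells. MucinDuctal cells lay between, at 54.1 and 90.9 CPM at 2 weeks and 60.5 and 52.0 CPM at 4 weeks. The Acinar value of 2-week mouse 2 was above all MucinDuctal values, and those of the other 3 mice were below all of them.

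Fosl1, which encodes Fra-1, was close to undetected. In Acinar cells it was at 0.0399 and 0.346 CPM at 2 weeks and 0 and 0.0561 CPM at 4 weeks, and in Acinar.Prolif cells no UMI was found in 456 and 104 cells at 2 weeks and in 187 and 147 cells at 4 weeks, which allows levels of up to 0.223 and 1.0 CPM and up to 0.525 and 0.511 CPM (3 UMIs of the total). MucinDuctal was the only type in which it passed the filter on low counts, at 0.579 and 3.18 CPM at 2 weeks and 1.06 and 0.729 CPM at 4 weeks. Fosl2, which encodes Fra-2, was highest in MucinDuctal cells of every mouse among the types: 36.1 and 48.1 CPM at 2 weeks and 39.4 and 44.7 CPM at 4 weeks there, 4.73 and 6.11 CPM at 2 weeks and 2.22 and 3.53 CPM at 4 weeks in Acinar cells. Its mean log2 ratio to Acinar was 3.12 ± 0.45 (SD, n = 4), or 2.21 ± 0.40 with the enzymes left out. In MucinDuctal cells the 2 groups of mice overlapped.

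Jun, the strongest activator of the Jun proteins, was at 117 and 279.8 CPM at 2 weeks and 47.4 and 61.6 CPM at 4 weeks in Acinar cells and at 919.9 and 1391 CPM at 2 weeks and 1150.3 and 984 CPM at 4 weeks in Ductal-like cells. EEC cells held 897 and 1509.8 CPM at 2 weeks and 1100.5 and 1015 CPM at 4 weeks, and MucinDuctal cells 482 and 943 CPM at 2 weeks and 508 and 689 CPM at 4 weeks. Junb, a weaker activator that can oppose Jun, was lowest in Acinar.Prolif cells in 3 of 4 mice, at 12.9 and 57.6 CPM at 2 weeks and 7.17 and 21.4 CPM at 4 weeks. In Acinar cells it was at 19.0 and 114 CPM at 2 weeks and 12.6 and 19.5 CPM at 4 weeks and in Ductal-like cells at 626 and 1056 CPM at 2 weeks and 764 and 656 CPM at 4 weeks, where every mouse was above every Acinar value. Jund, which is broadly expressed and less dependent on stimulation, was at 329 and 383 CPM at 2 weeks and 163 and 201 CPM at 4 weeks in Acinar cells and at 1464 and 2029.6 CPM at 2 weeks and 1766 and 1839 CPM at 4 weeks in EEC cells, again without overlap.

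Atf3 did not keep this order of types. In Acinar cells it was at 102 and 70.3 CPM at 2 weeks and 9.88 and 16.5 CPM at 4 weeks, in Acinar.Prolif cells at 22.7 and 24.1 CPM at 2 weeks and 3.32 and 4.59 CPM at 4 weeks, and in Acinar/MucinDuctal cells at 141 and 97.4 CPM at 2 weeks and 37.0 and 28.5 CPM at 4 weeks. Both 2-week mice were above both 4-week mice in each of these 3 types. The 8 macrophage markers, none at 0 in these types, were lower at 4 weeks in Acinar cells as well, at 20.2 and 27.2 CPM at 2 weeks and 12.3 and 10.2 CPM at 4 weeks. They overlapped in Acinar.Prolif cells, at 37.6 and 41.2 CPM at 2 weeks and 16.4 and 60.1 CPM at 4 weeks, and were higher at 4 weeks in Acinar/MucinDuctal cells, at 59.4 and 70.9 CPM at 2 weeks and 233 and 253 CPM at 4 weeks. Their part in the Atf3 levels was not tested. In MucinDuctal cells it was at 24.8 and 202 CPM at 2 weeks and 37.5 and 41.3 CPM at 4 weeks, in EEC cells at 53.3 and 259 CPM at 2 weeks and 136 and 50.7 CPM at 4 weeks, and in Ductal-like cells at 25.8 and 258 CPM at 2 weeks and 56.8 and 55.0 CPM at 4 weeks. There 2-week mouse 2 was the highest mouse, and 2-week mouse 1 lay among or below the 4-week mice. Tuft cells were low throughout, at 5.27 and 22.6 CPM at 2 weeks and 9.62 and 9.59 CPM at 4 weeks. Within a mouse, Atf3 was below its Acinar level in Acinar.Prolif and in Tuft cells in 4 of 4 mice, with mean log2 ratios of -1.65 ± 0.34 and -1.60 ± 1.75 (SD, n = 4), or -2.04 ± 0.26 and -2.67 ± 1.67 with the secretory enzymes left out of all totals. In 4-week mouse 1 the levels with enzymes included were close, at 9.62 CPM in Tuft and 9.88 CPM in Acinar cells. The thinned shares given below have the other order in that mouse.

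**Figure D1:**
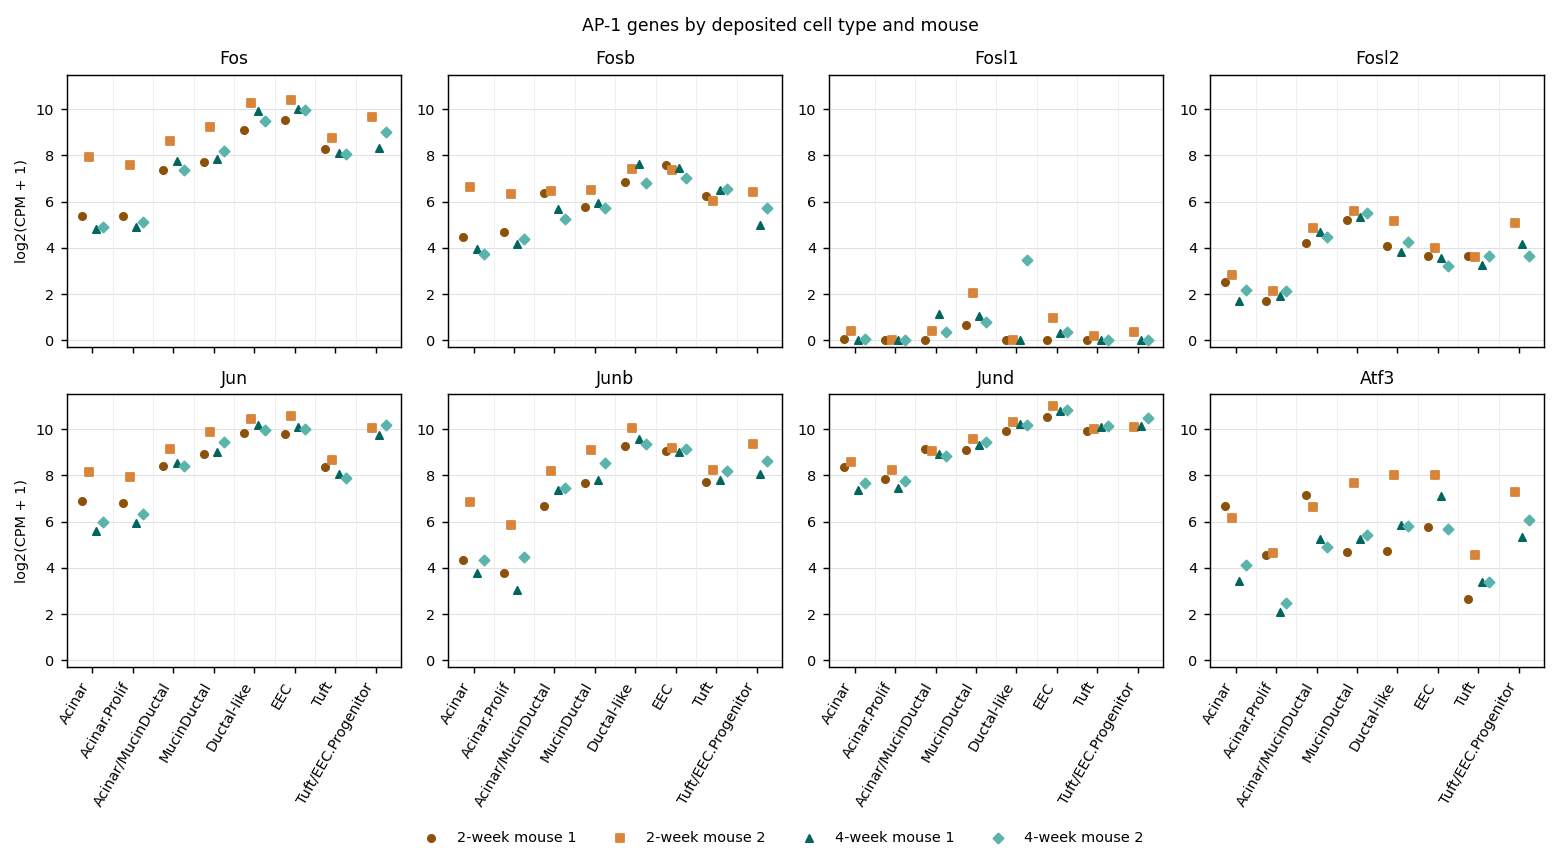
Level of each AP-1 gene in the deposited cell types, in CPM on a log axis, with 1 point for each mouse. Fos, Jun and Junb of 2-week mouse 2 stand above the other 3 mice in most types, while Atf3 is high in both 2-week mice in the 3 acinar types.

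The share of cells with at least 1 UMI depends on depth, so each cell was also thinned to 1000 UMIs, the size of the smallest cell, and expected shares were taken. In Acinar cells the thinned share for Fos was 4.41% and 19.1% for the 2-week mice against 2.78% and 3.61% for the 4-week mice, and before thinning it was 41.0% and 70.7% against 29.4% and 33.2%. In EEC cells the thinned share for Fos was 43.6% and 56.6% for the 2-week mice against 53.6% and 50.6% for the 4-week mice. For Jun it was 10.4% and 21.6% for the 2-week mice against 4.85% and 6.78% for the 4-week mice in Acinar and 48.9% and 60.8% for the 2-week mice against 53.1% and 48.1% for the 4-week mice in EEC cells, so that the order of these types was kept at equal depth. For Atf3 in Acinar cells it was 4.52% and 5.31% for the 2-week mice against 0.695% and 1.19% for the 4-week mice, with 23.6% and 38.8% against 9.06% and 15.5% before thinning. T or NK-like cells, which have no deposited type, gave 0.70% and 1.59% for the 2-week mice against 0.0699% and 0% for the 4-week mice for Atf3 after thinning, at a median depth of 3000 to 4055.5 UMIs before it, compared with 24008 to 32664.5 in Acinar cells. The Acinar share was above that of T or NK-like cells of the same mouse in 3 mice, and no order is read in 4-week mouse 2. There the T or NK-like cells with an Atf3 UMI before thinning were 0 of 155 cells, which allows a share of up to 1.94% of cells with a UMI at their own, lower depth. Tuft cells were at 0.417% and 2.10% for the 2-week mice against 0.778% and 0.552% for the 4-week mice. Their share was below that of T or NK-like cells in 2-week mouse 1, where no order of these 2 is read.

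An Atf3 UMI was found in a minority of the Acinar cells of each mouse. In 2-week mouse 1, 345 of 1461 Acinar cells (95% exact binomial interval 21.5% to 25.9%) carried 5110 Atf3 UMIs. In 2-week mouse 2, 226 of 583 cells (34.8% to 42.9%) carried 1220 UMIs. Each cell's Atf3 UMIs were also divided by the cell's own total. The 10% of cells with the highest values held 92.1% of the summed values in 2-week mouse 1 and 68.1% in 2-week mouse 2. At 4 weeks 69 of 762 and 138 of 892 cells carried 258 and 588 UMIs. A smaller share of cells thus had an Atf3 UMI in 2-week mouse 1 than in 2-week mouse 2, at more UMIs per such cell. Cells whose Atf3 RNA was not captured count as without it, and the intervals cover counting error only.

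Whether AP-1 RNA differs between 2 and 4 weeks of injury was asked in the 7 types with at least 20 cells in every mouse, with edgeR's quasi-likelihood test on counts summed per mouse, 2 mice against 2. Ductal-like was the smallest of these types, with 22 to 56 cells per mouse. Atf3 in Acinar.Prolif cells was the 1 call among 50 pairs of gene and type at an adjusted p under 0.05. There it fell at 4 weeks by 2.39 on the log2 scale (SE 0.25, adjusted p = 0.0144, lower in both 4-week mice than in both 2-week mice), and it was the only gene called in that type, 0.00995% of 10046 tested. Its adjusted p ranged from 4.86e-18 to 0.0939 over the alternative settings, the latter with a fit that is not robust. In Acinar cells, where 0% of genes were called, the log2 change of Atf3 was -2.30 (SE 0.36), with an adjusted p of 0.718 and a range of 4.92e-14 to 0.828 over the alternatives. In Acinar/MucinDuctal cells, also with 0% called, it was -1.79 (SE 0.21), with an adjusted p of 0.0632 and a range of 1.18e-15 to 0.998. DESeq2 made 3 calls, Atf3 in these 3 acinar types, where it called 0.0118% (Acinar.Prolif), 0.0882% (Acinar) and 0.113% (Acinar/MucinDuctal) of all genes. In the other 4 types 0% of genes were called by edgeR, and DESeq2 called 0.00602% to 0.22% and no AP-1 gene.

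The Atf3 difference in the 3 acinar types did not depend on 2-week mouse 2. Without that mouse the log2 change was -2.65 in Acinar (edgeR adjusted p = 0.00351), -2.50 in Acinar.Prolif and -2.03 in Acinar/MucinDuctal cells (adjusted p = 0.000927). Without 2-week mouse 1 it was -1.75 (adjusted p = 0.0472), -2.21 and -1.54 (adjusted p = 0.00509). In these fits the lone 2-week mouse is assumed to vary like the 4-week mice. More genes of all kinds were then called: 1.01%, 1.27% and 0.758% in the 3 types without 2-week mouse 2, and 0.667%, 1.34% and 0.976% without 2-week mouse 1. In MucinDuctal cells the picture differed: the log2 change of Atf3 was -1.39 (SE 0.93) with all mice, 0.76 without 2-week mouse 2 and -2.20 without 2-week mouse 1. The sign thus turned with 1 mouse, as it did in Ductal-like, EEC and Tuft cells. The MucinDuctal cells of 2-week mouse 2 also differed in makeup. Their mucin or pit markers summed to 33441 CPM against 93722 to 125560 CPM in the other 3 mice, and 82.0% of them were in the authors' cluster 1 against 23.7% to 43.6%. Within cluster 1 Atf3 was at 51.4 and 214 CPM at 2 weeks and 72.4 and 53.0 CPM at 4 weeks, and within cluster 2 at 15.4 and 148 CPM at 2 weeks and 30.0 and 32.7 CPM at 4 weeks, with 2-week mouse 2 the highest in both.

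Fos, Fosb, Jun and Junb had lower means at 4 weeks in Acinar cells, and none passed the adjusted threshold. The log2 change of Fos was -1.78 (SE 0.84), with an adjusted p of 0.998. It was -0.26 without 2-week mouse 2 (adjusted p = 0.999) and -2.44 without 2-week mouse 1 (adjusted p = 0.00634), within a range of 2.93e-07 to 1 for the adjusted p over all alternatives. Junb moved from -1.49 to 0.06 without 2-week mouse 2. Jun moved from -1.36 (SE 0.35) to -0.80, and so stayed lower at 4 weeks. Leaving out 2-week mouse 1 raised the calls from 1 to 13, namely Fos, Fosb, Jun, Junb and Atf3 in Acinar cells, all of these but Junb in Acinar.Prolif cells, and Atf3 in Acinar/MucinDuctal, Ductal-like, MucinDuctal and Tuft cells. Calls over all genes rose in the same fits, from 0 to 85 in Acinar, from 1 to 143 in Acinar.Prolif, and from 0 to 122, 230, 191 and 273 in the other 4 types in that order, with 3.11% of all genes called in Ductal-like, 1.34% in MucinDuctal and 2.31% in Tuft cells. Leaving out 2-week mouse 2 gave 4 calls, Atf3 in the 3 acinar types and Jun in Acinar.Prolif cells, where all-gene calls rose to 129 in Acinar, 132 in Acinar.Prolif and 86 in Acinar/MucinDuctal cells. Without 4-week mouse 2 there were 2 calls, Atf3 in Acinar and Acinar.Prolif cells, among 14 and 5 over all genes.

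Over all pairs, 39 of 50 had a lower fitted level at 4 weeks and 9 had an unadjusted edgeR p under 0.05 (10 by DESeq2). Of all genes, 48.6% to 53.6% were lower and 2.45% to 6.74% had such an edgeR p, depending on the type. The count rested on 2-week mouse 2: without it 19 of 49 pairs were lower, against 45 of 50 without 2-week mouse 1. In Acinar cells 7 of 7 genes tested were lower, with a median log2 change of -1.49 against -0.03 over all genes, and in 6 of them both 4-week mice were below both 2-week mice, an arrangement that 17.2% of all genes of that type had. Without 2-week mouse 2 the median was -0.41 with 6 of 7 lower. In Acinar.Prolif cells 6 of 7 were lower (median -1.09), with 5 apart below against 15% of all genes and Fosl2 apart above against 14.4%, and without 2-week mouse 2 the median was -0.34. In Acinar/MucinDuctal cells 6 of 7 were lower (median -0.30), with Atf3, Fosb and Jund apart below against 16.5%. The median was -0.23 over 8 genes in MucinDuctal, -0.15 in Tuft, -0.10 in Ductal-like and -0.08 in EEC cells. Without 2-week mouse 2 these medians turned sign, to 0.41, 0.19, 0.41 and 0.27 in that order, as did that of Acinar/MucinDuctal cells, to 0.15, and in MucinDuctal cells 0 of 8 genes were then lower. The median also turned to 0.03 in Tuft cells without 4-week mouse 1 and to 0.04 in Ductal-like and 0.03 in EEC cells without 4-week mouse 2. No gene was apart in MucinDuctal cells (18.4% of all genes below, 18.5% above) or in Ductal-like cells (17.8% and 17.5%). In EEC cells Fosl2 was apart below (17.2%) and Junb above (16.8%). Tuft cells had Jun and Fos apart below (17.5%) and Fosb and Jund above (17.9%), with log2 changes of -0.54 (SE 0.15), -0.48 (SE 0.17), 0.41 (SE 0.15) and 0.15 (SE 0.12). The authors' cluster 7 held 51.8% and 71.9% of Tuft cells in the 2-week mice against 42.0% and 41.9% in the 4-week mice, and the part of this makeup was not tested. Summed macrophage markers in Tuft cells were at 106 and 59.3 CPM at 2 weeks and 14.7 and 12.5 CPM at 4 weeks. Their part was not tested either. Enzymes took 51.0% and 49.0% of Acinar UMIs at 2 weeks, below the 58.0% and 57.6% at 4 weeks. Scaling by library totals alone, without TMM, moves the median log2 change of all genes to -0.49 in Acinar, -0.18 in Acinar.Prolif and -0.13 in MucinDuctal cells, and the values above are relative to the TMM scaling.

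An interaction term, with the mouse as a block, tested whether Acinar and MucinDuctal cells differed in their time effect. Of 8 AP-1 genes among 14098 tested, 0 passed the adjusted threshold by edgeR or DESeq2 (0% of all genes by each), and 4 had an unadjusted p under 0.05 by each tool, as did 430 of the 14098 genes by edgeR and 192 of 21372 by DESeq2. Expressed as MucinDuctal minus Acinar, the difference on the log2 scale was 1.19 (SE 0.28) for Jun, 1.04 (SE 0.33) for Fos, 1.09 (SE 0.40) for Fosb, 0.98 (SE 0.33) for Junb and 1.45 (SE 1.55) for Atf3, each with an edgeR adjusted p of 1. Without 2-week mouse 1, Fos, Fosb, Jun and Junb passed, and without 2-week mouse 2, Jun (1.23) and Atf3 (3.46) did. In these fits 970 of 14617 genes (6.64%) and 92 of 14352 (0.641%) passed. For Atf3 the difference was -0.41 without 2-week mouse 1, the other sign.

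The authors' cluster numbers divide Acinar cells into clusters 0, 6 and 8 and most Acinar/MucinDuctal cells into clusters 3 and 4, and the fits were repeated in each after the data had been seen. Among the 3 Acinar clusters Atf3 was highest in cluster 6, at 254 and 107 CPM at 2 weeks and 51.0 and 35.2 CPM at 4 weeks. In cluster 0 it was at 7.30 and 35.4 CPM at 2 weeks and 1.97 and 3.03 CPM at 4 weeks, and in cluster 8 at 45.8 and 95.5 CPM at 2 weeks and 3.24 and 3.65 CPM at 4 weeks. Both 4-week mice were below both 2-week mice in all 3, and 2-week mouse 1 was the highest mouse in cluster 6 alone. In cluster 6 Atf3 was found in 207 of 339 and 34 of 74 cells at 2 weeks and in 28 of 96 and 94 of 314 cells at 4 weeks, at a median depth of 36817.5 to 48746 UMIs, the deepest of the 3 clusters. Fos in cluster 6 was at 40.7 and 177 CPM at 2 weeks and 37.3 and 33.2 CPM at 4 weeks, so that the mouse with the most Atf3 had a Fos level within 10 CPM of both 4-week mice. Cluster 3 of Acinar/MucinDuctal cells held Atf3 at 187 and 72.2 CPM at 2 weeks and 21.9 and 16.7 CPM at 4 weeks, and cluster 4 at 72.0 and 121 CPM at 2 weeks and 45.7 and 40.3 CPM at 4 weeks.

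The log2 change of Atf3 was -2.67 (SE 1.06), -1.88 (SE 0.52) and -4.15 (SE 0.49) in Acinar clusters 0, 6 and 8, and -2.77 (SE 0.53) and -1.04 (SE 0.27) in clusters 3 and 4. None passed in edgeR (0.0365% of all genes called in cluster 0, 0.00978% in cluster 3 and 0% in the other 3), with the smallest adjusted p, 0.209, in cluster 8. Atf3 had its 4-week mice below in all 5 clusters, against 15.3% (cluster 0), 18.7% (6), 16.2% (8), 15.6% (3) and 17.3% (4) of all genes. Cluster shares differed between mice: cluster 6 held 23.2% and 12.7% of Acinar cells in the 2-week mice against 12.6% and 35.2% in the 4-week mice, and cluster 8 held 19.5% and 43.9% against 15.8% and 8.74%. The part of these shares in the Atf3 level of Acinar cells was not tested. The 8 macrophage markers summed to 12.5 and 16.9 CPM at 2 weeks and 5.53 and 5.78 CPM at 4 weeks in cluster 6, with 0 to 3 of them at 0, and both 4-week mice were below both 2-week mice in clusters 0 and 8 too. Their part in the Atf3 level was not tested. They summed to 25925 to 34231 CPM in macrophage-like cells of the same libraries.

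The second 2-week mouse, 2-week mouse 2, was the highest mouse for Fos and Jun in 7 of 7 types, for Junb in 6, for Fosb, Fosl2 and Atf3 in 4 and for Jund in 3, after TMM scaling. Over all genes tested, 24.6% to 34.9% were highest in that mouse, depending on the type. For Atf3 the highest mouse was 2-week mouse 1 in the other 3 types, the acinar ones, and a 4-week mouse in 0 of 7. In Acinar.Prolif cells this order came with TMM scaling, where the log2 ratio of 2-week mouse 2 to 2-week mouse 1 was -0.26. Before scaling 2-week mouse 2 was the higher there. In Acinar cells the log2 ratio of 2-week mouse 2 to 2-week mouse 1 was 2.21 for Fos, 2.21 for Junb, 1.88 for Fosb and 0.94 for Jun, but -0.09 for Jund and -0.83 for Atf3. In MucinDuctal cells it was 1.43 for Fos and 2.91 for Atf3, and in Ductal-like cells 1.24 and 3.33. The order of Atf3 in the acinar types was that of the summed cells: 2-week mouse 1 was the higher of the 2 in clusters 6 and 3 and the lower in clusters 0, 8 and 4. These ratios have 1 mouse on each side and no test.

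Genes known to respond to tissue handling were high in the same mouse. Egr1, an immediate early zinc finger factor, was at 53.5 and 195 CPM at 2 weeks and 29.7 and 33.8 CPM at 4 weeks in Acinar cells, and it was highest in 2-week mouse 2 in 7 of 7 types. The inducible heat shock gene Hspa1b was at 0.878 and 16.02 CPM at 2 weeks and 0.421 and 0.505 CPM at 4 weeks there and also highest in that mouse in 7 of 7 types, and Hspa1a in 6 of 6. Zfp36, whose protein destabilises cytokine mRNAs, was highest in it in 7 of 7 types, Dusp1, a MAP kinase phosphatase, in 6 of 7 and Ier2 in 5 of 7. The log2 ratio of 2-week mouse 2 to 2-week mouse 1 in Acinar cells was 1.54 for Egr1 and 2.86 for Hspa1b. Like Atf3, these genes also had both 4-week mice below both 2-week mice in acinar types: Egr1, Dusp1, Ier2 and Hspa1b in Acinar and Acinar.Prolif cells, Hspa1a in Acinar cells, Zfp36 in Acinar.Prolif cells, and Hspa1a and Hspa1b in Acinar/MucinDuctal cells, where Egr1, Dusp1, Ier2 and Zfp36 overlapped. Unlike Atf3, Hspa1b also had this arrangement in Ductal-like, EEC, MucinDuctal and Tuft cells. Hspa1a had it in Ductal-like and MucinDuctal cells too, and Dusp1 in Ductal-like and Tuft cells. Egr1, Ier2 and Zfp36 overlapped in these types. Of all genes, 17.2% in Acinar, 15% in Acinar.Prolif and 16.5% in Acinar/MucinDuctal cells had this arrangement. The share was 17.8% in Ductal-like, 17.2% in EEC, 18.4% in MucinDuctal and 17.5% in Tuft cells. In MucinDuctal cells Hspa1b was at 27.9 and 122 CPM at 2 weeks and 9.86 and 9.65 CPM at 4 weeks. Summed ductal markers (8 genes, none at 0 in any mouse) in Acinar cells were also highest in that mouse, at 265 and 838 CPM at 2 weeks and 219 and 346 CPM at 4 weeks, against 10577 and 11393 CPM at 2 weeks and 8546 and 7615 CPM at 4 weeks in MucinDuctal cells. Its Acinar cells had the highest median mitochondrial share, 0.855% against 0.437% to 0.526%. Cluster 8 held 43.9% of its Acinar cells, against 8.74% to 19.5% in the other mice. In this mouse the mitochondrial share and ductal markers were 1.31% and 1270 CPM in cluster 8, and 0.59% and 488 CPM in cluster 0. Within each of clusters 0, 6 and 8 this mouse was also the highest for both. The part of this makeup was not tested. The part of digestion, sorting, other cells' RNA or injury itself in these levels was not tested, and with 1 mouse standing apart and no uninjured mouse they cannot be told apart.

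Among the 7778 cells without a deposited type, AP-1 genes were also measured, both in cells with markers of other lineages, such as macrophages and lymphocytes, and in cells with acinar, ductal, endocrine or mucin markers. These cells were clustered with 49 AP-1, immediate early and heat shock genes left out, and 10 classes with at least 20 cells in each mouse were named from fixed markers. The ductal-like class joins cluster 10 with 97 and 38 cells at 2 weeks and 116 and 45 at 4 weeks and cluster 13 with 13 and 62 cells at 2 weeks and 95 and 78 at 4 weeks. The top 10 genes of cluster 13 hold 1 ductal marker, Krt19, beside Cym and Pga5, which are also among those of the mucin or pit-like cluster, so the class is mixed and its makeup differs between mice. Acinar-like cells include cluster 24, whose 30 cells are all from 4-week mouse 2, and macrophage-like cells include cluster 12, with 33 and 126 cells at 2 weeks and 38 and 60 at 4 weeks, beside cluster 1, with 181 to 290 cells per mouse. Cluster 11, with 7 macrophage markers and 258 and 0 cells at 2 weeks and 13 and 12 at 4 weeks, stayed unnamed. So did cluster 2, with 8 acinar markers and 714 cells. Neither is in these classes, since none of these markers was among its top 10 genes. How far this makeup bears on the values of these classes was not tested. Fos in macrophage-like cells was at 649.8 and 1636 CPM at 2 weeks and 708 and 471 CPM at 4 weeks. Atf3 was at 370.5 and 465 CPM at 2 weeks and 213 and 164 CPM at 4 weeks there, above the Acinar level in every mouse, and Jun was at 628 and 834 CPM at 2 weeks and 611 and 509.6 CPM at 4 weeks. Fos and Jun were highest in 2-week mouse 2, and the Fos groups overlapped, as did those of Jun after TMM scaling. For Atf3 both 2-week mice were above both 4-week mice.

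T or NK-like cells had less Fos and Atf3 than the macrophage-like cells of the same mouse in every mouse. Their Fos was at 58.9 and 76.2 CPM at 2 weeks and 43.7 and 38.8 CPM at 4 weeks. This Fos level was above that of Acinar cells in every mouse but 2-week mouse 2. Their Atf3 was at 3.92 and 11.496 CPM at 2 weeks and 1.18 and 0 CPM at 4 weeks. B-like cells held Fos at 312 and 245 CPM at 2 weeks and 205 and 191 CPM at 4 weeks, and here 2-week mouse 2 was not the highest mouse. Mesothelial-like cells had the highest Fosl2 of the classes, at 71.3 and 106 CPM at 2 weeks and 115 and 104 CPM at 4 weeks. A pair of clusters holding all 6 fibroblast markers stayed unnamed, since none of the markers was among their top 10 genes: cluster 6, led by Mgp, Ptn and Cilp, had Fos at 567 and 1071 CPM at 2 weeks and 415 and 263 CPM at 4 weeks, and cluster 8, led by Dpt, Tnxb and Sfrp4, had 188 and 222 CPM at 2 weeks and 84.5 and 40.7 CPM at 4 weeks. Atf3 in these clusters was at 17.8 and 20.0 CPM at 2 weeks and 2.36 and 3.25 CPM at 4 weeks and at 17.9 and 21.2 CPM at 2 weeks and 4.34 and 1.94 CPM at 4 weeks, and no test was made in these clusters.

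Over time, 57 pairs of gene and class were tested and 0 passed in edgeR or DESeq2, while 8 had an unadjusted p under 0.05 by edgeR and 5 by DESeq2. Of the 57, 47 had a lower fitted level at 4 weeks, and 29 without 2-week mouse 2. Of all genes, 2.42% to 7.16% had an unadjusted edgeR p under 0.05 and 49.4% to 52.0% were lower, depending on the class. Leaving out the ductal-like class, 0 of 50 pairs passed, 8 had an unadjusted edgeR p under 0.05 and 41 were lower. The share of all genes called by edgeR was 0.0969% in B-like, 0.056% in endothelial-like, 0.0342% in endocrine-like, 0.0325% in macrophage-like, 0.0301% in mucin or pit-like and 0% in the other 5 classes. The smallest unadjusted p was that of Atf3 in macrophage-like cells, with a log2 change of -1.04 (SE 0.19) and an edgeR adjusted p of 0.351, within 3.52e-05 to 1 over the alternatives. It was -0.88 without 2-week mouse 2 and -1.16 without 2-week mouse 1. Atf3 and Fosl2 were apart below in this class, against 17.2% of all genes. Jun had -1.75 (SE 0.37) in acinar-like cells and -0.63 (SE 0.19) in B-like cells. In B-like cells Jun, Junb and Fos were apart below, against 17% of all genes, with Atf3 too low to be tested. In mucin or pit-like cells Fosb was apart below (18.2%), with a log2 change of -1.24 (SE 0.39). In mesothelial-like cells Jun was apart below (17%) and Fosl2 apart above (15.4%) after TMM scaling. No other class had an AP-1 gene apart above.

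Without 2-week mouse 1 there were 9 calls in these classes, namely Fos, Fosb, Jun, Junb and Atf3 in acinar-like, Atf3 and Fosb in macrophage-like, Atf3 in endocrine-like and Jund in endothelial-like cells. Over all genes 1.04%, 0.491%, 2.12% and 1.52% were called in these 4 classes. Without 2-week mouse 2 there were 3, namely Atf3 and Fos in dendritic-like and Atf3 in endocrine-like cells, where 8.32% and 1.46% of all genes were called. Without 4-week mouse 1 the 1 call was Jun in acinar-like cells (0.879% of all genes), joined by Fosb in endothelial-like cells (1.33%) without 4-week mouse 2. This Fosb call and that of Atf3 in acinar-like cells are of genes too low to be tested with all mice. Fosb had 0 UMIs in the 33 endothelial-like cells of 4-week mouse 1, the only 4-week mouse left in that fit, and Atf3 in acinar-like cells was at 7.13 and 22.9 CPM at 2 weeks and 2.44 and 2.30 CPM at 4 weeks, so both passed the filter through the 2-week side and nothing is read from them. Atf3 in endocrine-like cells was at 9.01 and 211 CPM at 2 weeks and 91.0 and 38.2 CPM at 4 weeks. Its log2 change was -0.67 (SE 1.74) with all mice, -1.57 without 2-week mouse 1 and 2.90 without 2-week mouse 2, the latter 2 both past the adjusted threshold in edgeR with opposite signs. In dendritic-like cells Atf3 was at 155 and 62.3 CPM at 2 weeks and 93.8 and 59.9 CPM at 4 weeks, with 2-week mouse 1 the highest. The calls with a mouse left out were counted in either direction. With all mice, Jund was the only AP-1 gene apart below in dendritic-like cells (17.4% of all genes), and Fos was not. Over the classes in which a gene was tested, 2-week mouse 2 was highest for Fos in 9 of 10, for Jund in 7 of 10, for Jun and Junb in 6 of 10, for Fosb in 5 of 7, for Atf3 in 4 of 5 and for Fosl2 in 3 of 5, against 24.2% to 30.7% of all genes. Egr1 was highest in it in 8 of 10 classes, Dusp1 in 7 of 8, Ier2 in 5 of 10, Zfp36 in 4 of 8, Hspa1b in 3 of 4 and Hspa1a in 1 of 2. In macrophage-like cells Egr1 was at 177 and 468 CPM at 2 weeks and 140.5 and 118 CPM at 4 weeks and Hspa1b at 52.0 and 101 CPM at 2 weeks and 24.6 and 8.49 CPM at 4 weeks.

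**Figure D2:**
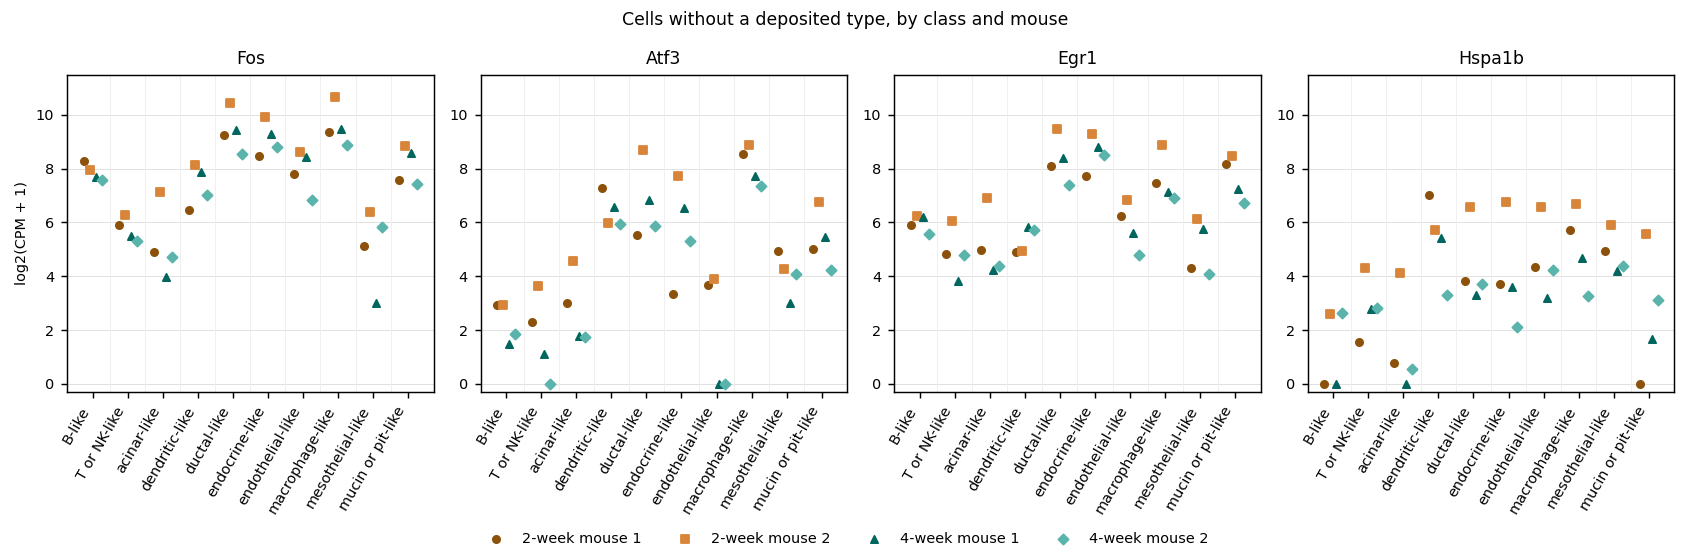
AP-1 genes and the handling-related genes in classes of cells without a deposited type, in CPM on a log axis, with 1 point for each mouse. Fos in 2-week mouse 2 is the highest point in 9 of 10 classes, and Atf3 in macrophage-like cells is lower in both 4-week mice.

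Lists of other genes of the pathway were read in the same fits, and none of their genes passed in any of the types or classes named here. Of 28 other immediate early genes 26 were tested in Acinar cells, 25 had lower levels at 4 weeks, 11 were apart below (17.2% of all genes) and the median log2 change was -1.25, or -0.29 with 19 lower without 2-week mouse 2. In MucinDuctal cells 25 of 28 were lower and 2 apart below (18.4%), with a median of -0.40, in EEC cells 10 of 27 were lower with a median of 0.08, and in macrophage-like cells 22 of 24 were lower with a median of -0.65. Without 2-week mouse 2 the medians were 0.27 in MucinDuctal, 0.24 in EEC and -0.06 in macrophage-like cells, and without 2-week mouse 1 they were -0.91 in MucinDuctal and -0.08 in EEC cells, where 16 of 27 were then lower. The macrophage-like median was -0.37 without 4-week mouse 2. Ier2, the immediate early gene with the highest level in Acinar cells, was at 109 and 278 CPM at 2 weeks and 64.1 and 77.8 CPM at 4 weeks, and Btg2, an antiproliferative gene, at 73.5 and 190.0 CPM at 2 weeks and 34.6 and 45.2 CPM at 4 weeks. Both had 2-week mouse 2 highest, like Fos. Of 13 heat shock genes 9 were lower in Acinar cells (median -0.21) and 13 of 13 in MucinDuctal cells (median -0.40, 6 apart below against 18.4% of all genes). With a mouse left out these medians ran from -0.32 (without 4-week mouse 2) to -0.03 (without 2-week mouse 2) in Acinar and from -0.70 (without 2-week mouse 1) to -0.18 (without 2-week mouse 2) in MucinDuctal cells. Hsp90ab1, a constitutive chaperone gene, was at 370.2 and 507 CPM at 2 weeks and 235 and 354 CPM at 4 weeks in Acinar cells.

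The RNA of genes that act upstream of AP-1 had a median change close to 0 in both types read. The activity of their proteins was not measured. Of 14 genes of the MAP kinase and SRF inputs, 14 were tested in Acinar cells, where 10 were lower with a median of -0.06, and in MucinDuctal cells, where 9 were lower with a median of -0.06. With a mouse left out these ran from -0.13 (without 2-week mouse 1) to -0.06 and from -0.05 to 0.01 (without 4-week mouse 2). Map2k2, which encodes the ERK-activating kinase MEK2, was at 62.1 and 72.7 CPM at 2 weeks and 60.2 and 59.5 CPM at 4 weeks in Acinar cells, but its log2 change after TMM scaling was 0.29, with both 4-week mice above. Among 14 other bZIP partners, 9 of 11 tested were lower in Acinar cells (median -0.32, 4 apart below against 17.2% of all genes), with a median of -0.18 without 4-week mouse 1 and -0.53 without 4-week mouse 2. Atf4, the translationally controlled stress factor that can induce Atf3, was at 118 and 103 CPM at 2 weeks and 61.4 and 91.8 CPM at 4 weeks, and its groups overlapped on the TMM scale. Of 20 genes known as AP-1 targets in other tissues, 9 were tested in Acinar cells and 7 were lower (median -0.56, or -0.09 without 2-week mouse 2 and -1.20 without 4-week mouse 2), and 12 were tested in MucinDuctal cells and 11 were lower (median -0.83, 8 apart below against 18.4% of all genes), with a median of -0.43 without 4-week mouse 1, -1.35 without 4-week mouse 2 and -1.28 without 2-week mouse 1. In MucinDuctal cells Hbegf, an EGF receptor ligand, was at 104 and 175 CPM at 2 weeks and 49.1 and 87.1 CPM at 4 weeks and Mmp7, a matrix protease, at 86.8 and 159 CPM at 2 weeks and 71.8 and 26.4 CPM at 4 weeks. The acinar enzymes went the other way in Acinar cells, with 29 of 32 higher at 4 weeks, a median of 0.60 and 16 apart above (14%), and a median of 0.30 without 2-week mouse 2 and 1.07 without 2-week mouse 1.

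Within the tuft and enteroendocrine cells the authors named 9 subtypes, whose levels are described without a test. Among Tuft cells, Fos was higher in the authors' cluster 7, at 463 and 522 CPM at 2 weeks and 441 and 396 CPM at 4 weeks, than in cluster 10, at 119 and 223 CPM at 2 weeks and 115 and 159 CPM at 4 weeks, with no overlap of mice. Fos in Tuft-2 cells was at 339 and 353 CPM at 2 weeks and 501 and 306 CPM at 4 weeks and in Tuft-3 cells at 176 and 229.8 CPM at 2 weeks and 95.1 and 171 CPM at 4 weeks. Among enteroendocrine subtypes, Epsilon (Ghrl+) cells, which make ghrelin, held the highest Atf3 value, 482 CPM in 2-week mouse 2, against 62.5 CPM in 2-week mouse 1 and 168 and 106 CPM at 4 weeks. Jund was highest in EEC-Progenitor (Neurog3+) cells in 3 of 4 mice, at 1963 and 2058 CPM at 2 weeks and 2433 and 2413 CPM at 4 weeks, and lowest of the enteroendocrine subtypes in Ppy+ cells, at 952 and 1070.3 CPM at 2 weeks and 1007 and 971 CPM at 4 weeks.

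Over 31 sums of mouse and type, the gene whose log2 level most resembled that of Fos among 8049 genes was Egr1 (Pearson r = 0.98), followed by Junb (0.97), Rhob, Jun and Prrc2b (each 0.96). For Junb these were Fos (0.97), Ier2 (0.97), Pfkl, Zscan2 and Trim44, and for Fosb, Fos (0.91), Fbxo3, Banp, Atp2a2 and Tshz1. Atf3 was like other genes to a lower degree: Tnfrsf12a, the TWEAK receptor, led at 0.82, before Socs3, a cytokine feedback inhibitor, at 0.79, Trib1 at 0.78, Hpcal1 at 0.74 and Colgalt1. Its r with Fos was 0.62, whereas that of Fos with Jun was 0.96. Jun was most like Meis2 (0.97), Nrip1, Auts2, Trim44 and 4632427E13Rik, Jund like Ube2b (0.98), Csnk1e, Rbm4b, BC005561 and Nsd1, and Fosl2 like Adra2a (0.95), Adgrl2, S100a6, Med13l and Ablim1. Fosl1 was too low to be compared. These sums share libraries and cell types, so the correlations describe the levels and carry no test.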

How the data were processed

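Single-cell RNA of pancreas cells labelled as sorted for EYFP, from 4 mice, was used. The authors deposited raw UMI counts per gene and cell without normalization, together with type, cluster and subtype names. Per the submitters' processing notes, Cell Ranger 4.0.0, Seurat 3.2.3 and mm10 were used. The annotation, the use of strand, the filter settings and how cell types were assigned are not given in the sources used here. The labels do not say whether a library holds 1 animal, so p-values measure the spread between libraries, each called a mouse here. Deposited cells had at least 1000 UMIs and mitochondrial shares of up to 6.00%. No doublet caller was run and no cell was removed.

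Counts were summed per mouse and type and tested with edgeR 4.0.16 (quasi-likelihood, robust, TMM, filterByExpr) under R 4.3.3, with Benjamini-Hochberg adjustment over all genes of a type at 0.05. Types and classes needed at least 20 cells in each mouse, so Tuft/EEC.Progenitor was not tested. DESeq2 1.42.0 was an alternative, beside library totals alone, no count filter, a fit that is not robust, enzymes left out, cells of at least 3000 UMIs and each mouse left out. The fits within the authors' clusters, the counts without the ductal-like class, the counts of genes whose groups do not overlap (on TMM-scaled CPM) and the condition that a marker be among a cluster's top 10 genes were chosen after the data had been seen. Each SE given with an edgeR log2 change is the size of that change divided by the square root of its F statistic. It was not computed as a spread over mice. Ratios between the 2-week mice are log2 of TMM-scaled CPM plus 1. Shares have 95% exact (Clopper-Pearson) intervals. Thinned shares are hypergeometric expectations at 1000 UMIs, with 3000 as an alternative. For cells without a type, scanpy 1.11.5 built a graph of 15 neighbours on 30 components from 2000 variable genes, and Leiden clusters were taken at resolution 0.6. Names needed 3 or more markers of a class, each in 20% or more of a cluster's cells and with a log2 fold of 1 or more, of which 1 or more had to be among its top 10 genes; 11 clusters stayed unnamed. The fits were tested on counts simulated for Acinar and MucinDuctal cells. These had the same dispersion for all genes and no mouse standing apart, so they do not cover the case met here.

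The AP-1 genes, the lists and the markers were chosen with earlier results of these data known. Named beside the 8 genes are Egr1, Ier2, Dusp1, Zfp36, Hspa1a and Hspa1b, up to 3 genes per list with the highest mean level, and the 5 genes most alike to each member, of at least 10 CPM. A pair of list symbols was changed to Ccn1 and Ccn2 to match the table. Promoters are RefSeq entries on GRCm38.p6, which 7 of 8 genes had.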

Additional observations from a re-analysis of the deposited data

How the results depend on the processing

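With 2 mice per time point, single mice decide most values. Of 50 pairs of AP-1 gene and type, 1 was called by edgeR, 3 by DESeq2, 10 with no count filter, 2 with no TMM, 0 with a fit that is not robust, 2 with cells of at least 3000 UMIs and 1 to 13 with a mouse left out. In classes of cells without a type the count was 0, 2 with no count filter and 1 to 9 with a mouse left out, and for the difference between Acinar and MucinDuctal cells 0, and 0 to 4 with a mouse left out. Atf3 stayed lower at 4 weeks in Acinar, Acinar.Prolif and Acinar/MucinDuctal cells under every alternative run. Over all genes, calls with no TMM were 9 in Acinar, 7 in EEC, 2 in Acinar.Prolif, 2 in Acinar/MucinDuctal and 0 in the other 3 types, those with deeper cells 13 in Acinar/MucinDuctal, 1 in Acinar.Prolif and 0 in the other 4 fitted, and those with no count filter 9 to 93 per class. In types the latter were 286 in Acinar, 266 in Tuft, 128 in Acinar/MucinDuctal, 51 in Acinar.Prolif, 81 in Ductal-like, 74 in EEC and 6 in MucinDuctal cells.

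Signs turned for Fos in EEC (-0.039), Fosl2 in Acinar/MucinDuctal (-0.025) and MucinDuctal (-0.007) and Junb in EEC (-0.059) with no TMM, for Fosl2 in Acinar/MucinDuctal with deeper cells (-0.062), and for Junb in Tuft with DESeq2 (0.005). Within clusters they turned for Fosl2 in cluster 0 (0.27) and cluster 4 (-0.032) and Junb in cluster 4 (0.022).

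With a mouse left out, these log2 changes turned sign within the ranges given. For Atf3 these were -2.22 to 1.15 in Ductal-like, -1.56 to 0.86 in EEC, -2.20 to 0.76 in MucinDuctal and -1.23 to 0.86 in Tuft. For Fos these were -1.003 to 0.29 in Acinar/MucinDuctal, -0.57 to 0.67 in Ductal-like, -0.24 to 0.47 in EEC and -1.02 to 0.41 in MucinDuctal. For Fosb these were -0.38 to 0.53 in Ductal-like, -0.47 to 0.10 in EEC and -0.53 to 0.15 in MucinDuctal. For Fosl1 these were -1.68 to 0.70 in MucinDuctal. For Fosl2 these were -0.23 to 0.46 in Acinar/MucinDuctal, -0.032 to 0.31 in MucinDuctal and -0.41 to 0.032 in Tuft. For Jun these were -0.64 to 0.15 in Acinar/MucinDuctal, -0.40 to 0.26 in Ductal-like, -0.36 to 0.27 in EEC and -0.50 to 0.40 in MucinDuctal. For Junb these were -2.17 to 0.056 in Acinar, -1.86 to 0.16 in Acinar.Prolif, -0.70 to 0.85 in Acinar/MucinDuctal, -0.59 to 0.23 in Ductal-like, -0.74 to 0.61 in MucinDuctal and -0.21 to 0.27 in Tuft. For Jund these were -0.11 to 0.34 in Ductal-like, -0.022 to 0.33 in EEC and -0.053 to 0.35 in MucinDuctal.

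The cause of these changes was not tested. Ductal-like cells could not be fitted with cells of at least 3000 UMIs alone, since too few were left. Acinar enzymes left out before the fit changed no call. No paired analysis was possible because each mouse gave 1 time point and replicate numbers only name mice. Depth limits Fosl1, at or near 0 in most types, and the Atf3 of lymphocytes.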
